A study of Mus musculus with 4 samples.

Results

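The S100 genes encode small proteins that bind calcium through paired EF-hand motifs and act mostly as dimers, inside the cell on target proteins and, for several of them, outside it as signals to pattern receptors. The 8 genes described here were S100a8, S100a9, S100a1, S100a4, S100a6, S100a10, S100a11 and S100a13. They were taken as every probe set whose single annotated gene symbol was one of these, which gave 9 probe sets (2 for S100a11 and 1 for each other gene) of 34760 on the array, or 8 of 19937 genes that had at least 1 such probe set. S100a8 and S100a9, whose products form the heterodimer calprotectin of granulocytes and monocytes, were treated as the myeloid members, and the other 6 as broadly expressed members. In the bone marrow S100a8 and S100a9 are known as genes that are switched on as granulocytes mature, whereas the rest of the family is found in many cell types.

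The RNA came from pro-B cells of the bone marrow of wild type mice (C57BL/6), isolated by their B220+ c-Kit+ phenotype, and was hybridized to Affymetrix Mouse Gene 1.0 ST arrays, as 4 replicates of 1 group. The labels give neither the age of the animals nor whether each replicate came from its own mouse, and no comparison between genotypes was made. Values are log2 intensities normalized with RMA, with array medians of 7.31 to 7.35. To mark unspecific signal, 1246 probe sets of chemosensory receptor genes (olfactory, vomeronasal and taste), taken as silent here, gave a line at their 95th percentile on each array, between 6.53 and 6.62. A gene counted as above background if every one of its 4 values exceeded that line. Of the early B-cell markers, 12 of 13 were above background, with Rag2 as the exception. So were 13 of 13 granulocyte, 5 of 5 azurophil granule and progenitor, 7 of 7 monocyte and macrophage and 8 of 8 erythroid markers. Over the arrays the mean log2 value was 13.07 to 13.40 for the azurophil, 10.85 to 11.53 for the granulocyte and 10.51 to 10.77 for the monocyte list. It was 9.83 to 10.83 for the early B-cell and 8.59 to 10.15 for the erythroid list. Such means depend on the probes and give no proportions of cells. Stromal and endothelial markers passed in 5 of 8 cases, T-cell and NK-cell markers in 6 of 8, and mast cell, basophil and eosinophil markers in 5 of 7. Plasmacytoid dendritic (6 of 6) and megakaryocyte markers (5 of 5) passed in all. Of all probe sets with 1 symbol 63.5% passed, so counts near that share say little about a list. Replicate 3 had a log2 value of 5.48 for Xist, the RNA of the inactive X chromosome, against 13.04 to 13.17 on the other arrays. The Xist value of replicate 3 lay below the background line of that array, 6.54, so its RNA was not from the same mice as the rest. Any difference of replicate 3 from the other arrays, in the S100 genes too, cannot be told apart from a difference of sex, which the labels do not give. Between replicates 1, 2 and 4 no label tells technical from biological spread. The median shift of the erythroid markers on replicate 1 was -1.46 from the mean of the other arrays.

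All 8 S100 genes were above background on every array, and they remained so, 8 of 8, when the line was raised to the 99th percentile. Among all 21640 probe sets with 1 symbol, 63.5% passed the same rule, and 52.0% passed the stricter line. In a one-sided limma test of the margin over the line across all probe sets, in which 60.2% were called, the adjusted p of the 8 genes lay between 2.29e-09 for S100a11 and 1.43e-06 for S100a4. The smallest margin over the line on any array was 2.21 on the log2 scale, for S100a13. Levels of different probe sets were not set against each other, since they depend on the probes, and the genes were compared by how they varied between arrays.

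**Figure D1:**
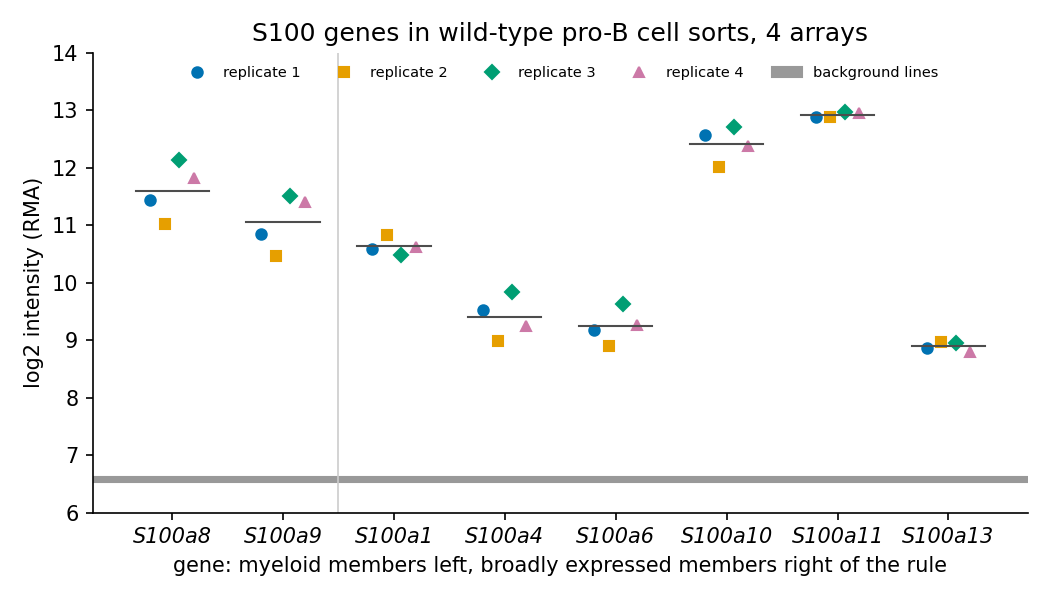
Log2 intensity (vertical axis) of the 8 S100 genes (horizontal axis) on the 4 arrays, all of wild type pro-B cells, with 1 symbol per array and bars for the means; the grey band spans the background lines, 6.53 to 6.62. All values lie above the band, and the points of S100a8 and S100a9 spread over more than those of S100a11 and S100a13.

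S100a8, also called MRP8, is one of the subunits of calprotectin. Its log2 values were 11.43, 11.02, 12.14 and 11.82 on the arrays of replicates 1 to 4, with a mean of 11.61 ± 0.49 (SD, n = 4). It was lowest on replicate 2 and highest on replicate 3, and the difference between those arrays was 1.12 on the log2 scale, or 2.18-fold. S100a9, or MRP14, is its partner subunit, and its values were 10.84, 10.47, 11.52 and 11.40, with a mean of 11.06 ± 0.49 (SD, n = 4). The order of the arrays was that of S100a8, and replicates 3 and 2 differed by 1.05, or 2.07-fold. After each gene was centred on its own mean, the values of the pair lay within 0.13 of each other on every array.

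These were the members with a range of at least 1 log2 unit, 2 of 8, where 1.64% of the 13744 probe sets with 1 symbol and above background had such a range. Of those probe sets 1.22% had a larger SD than S100a8 and 1.18% a larger one than S100a9, against a median SD of 0.11 over all of them. A share of 0.087% of them differed more between replicates 3 and 2, in either direction, than S100a8 did, and 0.138% more than S100a9. These arrays were picked as the ends of the range of the pair itself, so these shares are small by selection. The shares by SD do not depend on that choice. The range of both genes rested on the arrays at its ends. It was 0.71 for S100a8 and 0.68 for S100a9 without replicate 2, and 0.80 and 0.93 without replicate 3, so that the count of 2 members with a range of 1 became 0 when either array was left out.

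Both genes lie in the S100 cluster of chromosome 3, where the RefSeq annotation places S100a9 next to S100a8 on the opposite strand. The upstream sequences of this pair are shown because its members moved together over the arrays. They are the 250 bases before the RefSeq start of S100a8 (chr3:90668821-90669070, plus strand) and of S100a9 (chr3:90695722-90695971, minus strand), in GRCm38.p6, with capitals for matches to 3 motifs on either strand: TTGCNNAA, a core of C/EBP sites, GAGGAA, a core of sites of the myeloid and B-cell factor PU.1, and TATAAA, the TATA box.
S100a8: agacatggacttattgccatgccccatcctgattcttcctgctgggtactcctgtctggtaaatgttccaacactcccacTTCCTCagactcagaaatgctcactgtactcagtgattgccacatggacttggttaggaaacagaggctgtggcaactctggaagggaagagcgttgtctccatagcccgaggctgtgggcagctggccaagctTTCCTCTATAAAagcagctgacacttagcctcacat
S100a9: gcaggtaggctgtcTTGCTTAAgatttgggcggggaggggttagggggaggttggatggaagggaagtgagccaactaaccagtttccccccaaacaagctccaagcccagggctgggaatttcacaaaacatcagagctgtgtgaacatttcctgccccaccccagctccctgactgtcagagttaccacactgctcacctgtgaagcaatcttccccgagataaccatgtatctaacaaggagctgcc
The S100a8 window held the PU.1 letters on the reverse strand from 170 and from 36 bases upstream, and TATAAA from 30 bases upstream. The last PU.1 match and the TATA match adjoin without overlapping. The S100a9 window held the C/EBP letters from 236 bases upstream and neither of the other motifs. Over all 32851 RefSeq promoter windows of this length, 9.56% held the C/EBP letters, 23.3% the PU.1 letters and 12.4% TATAAA, and a match is a description of the sequence, not of a bound site. Of the other members with an entry, S100a4 held TATAAA from 31 bases upstream and S100a11 the PU.1 letters from 153 bases upstream, whereas S100a1, S100a6 and S100a13 held none of the 3 motifs. S100a10 had no promoter entry, so its upstream sequence was not searched.

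The gene on the granulocyte list among those nearest to S100a8 and S100a9 in centred values was Mmp8. Likeness was measured as the root mean square distance of the centred log2 values over the 4 arrays, among 12658 genes above background. For S100a8 the 5 nearest were Mmp8, the neutrophil collagenase, at 0.065, 9830107B12Rik at 0.066, S100a9 at 0.078, Gm9733 at 0.11 and Adam8, a membrane metalloproteinase of leukocytes, at 0.11. For S100a9 they were Gm9733 at 0.047, Mmp8 at 0.057, 9830107B12Rik at 0.059, S100a8 at 0.078 and Chil1, a chitinase-like protein, at 0.087. Mmp8 had log2 values of 10.64, 10.18, 11.19 and 11.04 on replicates 1 to 4, the same order of arrays as the S100 pair. With 4 arrays many genes share an order by coincidence, so these names describe the closest profiles and give no test.

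Among the broadly expressed members, S100a4, S100a6 and S100a10 also varied with the same arrays at the ends of the range. S100a4, known as metastasin and a partner of non-muscle myosin, had log2 values of 9.52, 8.99, 9.84 and 9.26 on replicates 1 to 4, with a mean of 9.40 ± 0.36 (SD, n = 4). S100a6, or calcyclin, had values of 9.17, 8.89, 9.64 and 9.26, with a mean of 9.24 ± 0.31 (SD, n = 4). S100a10, which has lost calcium binding and forms a complex with annexin A2, had values of 12.57, 12.01, 12.71 and 12.38, with a mean of 12.42 ± 0.31 (SD, n = 4). All of these were lowest on replicate 2 and highest on replicate 3, where the difference between those arrays was 0.85 for S100a4 (1.80-fold), 0.75 for S100a6 (1.68-fold) and 0.71 for S100a10 (1.63-fold). A larger SD was found for 3.11% of the probe sets above background in the case of S100a4, 4.93% for S100a6 and 5.08% for S100a10.

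On the remaining arrays the directions differed, by amounts that many probe sets exceeded. S100a8 and S100a9 were higher on replicate 4 than on replicate 1, by 0.39 and 0.56, whereas S100a4 and S100a10 were lower there, by -0.26 and -0.19 on the log2 scale. S100a6 differed by 0.09 between them. Between these arrays 11.7% of the probe sets above background differed by more than S100a8, 5.13% by more than S100a9, 25.1% by more than S100a4 and 40.4% by more than S100a10. In distance of centred values S100a4 lay 0.091 from S100a10 and 0.13 from S100a6, but 0.25 from S100a8 and 0.31 from S100a9. S100a6 was the broadly expressed member nearest to S100a8, at 0.18 and in rank 24 of all genes. The gene nearest to S100a10 was Cpa3, the mast cell carboxypeptidase, at 0.038, and Cpa3 was also second nearest to S100a4, at 0.059 after Cd177, a surface protein of neutrophils, at 0.049. After Cpa3 the nearest to S100a10 were Glipr2, Gstk1, Creld2 and Ipcef1, and the nearest to S100a4 were Vnn3, Hal and Clec10a. The gene nearest to S100a6 was Cd300c2, at 0.017. These neighbours of S100a4, S100a6 and S100a10 were named after their values were seen.

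**Figure D2:**
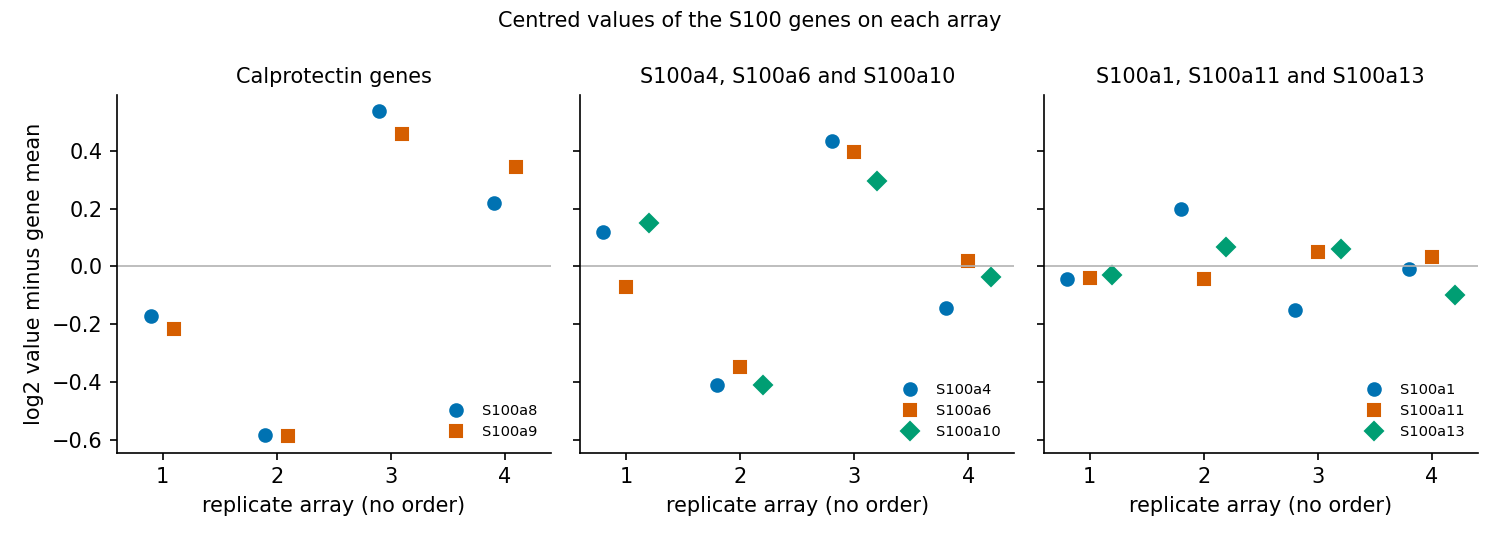
Log2 value minus the mean of the gene over the 4 arrays (vertical axis) on each array (horizontal axis; all are wild type pro-B cells), for the calprotectin genes, for S100a4, S100a6 and S100a10, and for S100a1, S100a11 and S100a13. In the first and second panels the points are lowest on replicate 2 and highest on replicate 3, and on replicate 4 S100a8 and S100a9 lie above their means while S100a4 and S100a10 lie below.

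S100a1, S100a11 and S100a13 varied less. S100a1, best known from heart muscle, had log2 values of 10.59, 10.84, 10.48 and 10.63 on replicates 1 to 4, with a mean of 10.63 ± 0.15 (SD, n = 4). It was highest on replicate 2 and lowest on replicate 3, the reverse of the genes above, with a difference of -0.35 between replicates 3 and 2. Of the probe sets above background, 7.57% differed by more between these arrays, again the ends of its own range, and 32.4% had a larger SD. S100a13, which takes part in the non-classical release of Fgf1 and Il1a, had values of 8.87, 8.96, 8.96 and 8.80, with a mean of 8.90 ± 0.08 (SD, n = 4). S100a11, a partner of annexin A1, was given by the probe set with the higher mean, at 12.88, 12.88, 12.98 and 12.96, with a mean of 12.93 ± 0.05 (SD, n = 4). Its second probe set, annotated with the same transcripts, read 12.68, 12.71, 12.85 and 12.87. Both probe sets of S100a11 were higher on replicates 3 and 4 than on replicates 1 and 2, but they differed on which of these arrays was lowest and highest. A larger SD was found for 91.3% of the probe sets in the case of S100a11 and for 74.4% in that of S100a13.

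In all, 6 of the 8 members were lowest on replicate 2 and highest on replicate 3, an order found for 7.93% of the 13744 probe sets above background. S100a11 was the sixth, and its 2 lowest arrays differed by less than 0.01. With quantile normalization, median centring, cyclic loess or the mean of both S100a11 probe sets the count was 5. A range of at least 0.5 was found for 5 members, S100a8, S100a9, S100a4, S100a6 and S100a10, and for 11.9% of the probe sets. The order and that range together were found for 0.99% of the probe sets. Without replicate 3, the array with the low Xist value, a range of at least 0.5 remained for 4 members (9.66% of the probe sets), with S100a6 at 0.37. Without replicate 2 it remained for 3 members (9.0%), with S100a6 at 0.47 and S100a10 at 0.33. The median SD was 0.49 for the myeloid members, which are only 2 genes, and 0.23 for the broadly expressed members. The value of 0.23 is that of no single gene. It lies between the SDs of S100a4, S100a6 and S100a10 (0.31 to 0.36) and those of S100a1, S100a11 and S100a13 (0.05 to 0.15).

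Markers of other marrow cells moved on the same arrays. The share of all probe sets that were lower on replicate 2 or higher on replicate 3 was not computed, so the counts by direction stand without it. On replicate 2, where the mean shift of S100a8 and S100a9 from the other arrays was -0.78 and the median shift of the 6 broadly expressed members -0.26, all 13 granulocyte markers were lower, with a median shift of -0.57. On replicate 3, where the shifts of the S100 genes were 0.66 and 0.24, all 13 were higher, with a median shift of 0.21. On replicate 4 the shifts were 0.38 and -0.03 for the S100 genes and 0.27 for the granulocyte markers, with 10 of 13 higher. The value of 0.38 was 0.13 without replicate 2 and 0.67 without replicate 3. The mean log2 value of the granulocyte markers lay between 10.85 on replicate 2 and 11.53 on replicate 3, and 6 of the 13 had these arrays at the ends of their range. The mast cell, basophil and eosinophil markers shifted by -0.52 on replicate 2 and 0.45 on replicate 3, with 4 of 7 in the order of the S100 genes and means between 8.14 and 8.69. Of these 7 markers, Fcer1a and Ms4a2 were not above background. The monocyte and macrophage markers were lower on replicate 2 in 7 of 7 cases, with a median shift of -0.17. Their median shift on replicate 3 was 0.09, and only 1 of the 7 had the order of the S100 genes. Their mean was highest on replicate 1, at 10.77, against 10.72 on replicate 3. The part of these cells in the S100 values was not tested, and in such bulk samples fewer cells of a type and less RNA per cell cannot be told apart.

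Other lists were also low on replicate 2 or stood out on other arrays. Their counts by direction likewise stand without the share of all probe sets. The S100 partners were lower on replicate 2 in 9 of 10 cases, with a median shift of -0.19, and higher on replicate 3 in 9 of 10, with one of 0.16. Both counts of 9 include Fgf1, Il1a and Syt1, which were not above background, and Myh9 by its brighter probe set. The other Myh9 probe set went the opposite way, with shifts of 0.13 on replicate 2 and -0.19 on replicate 3. The early B-cell markers were lower on replicate 2 in 11 of 13 cases, with a median shift of -0.32. Their lowest median shift, -0.57, was on replicate 4, with 10 of 13 lower, where the shift of S100a8 and S100a9 was 0.38. The 5 azurophil granule and progenitor markers, such as myeloperoxidase, had a median shift of 0.04 on replicate 2 and were lowest on replicate 1, at -0.25. The early B-cell markers were highest on replicate 1, with a median shift of 0.76, against -0.26 for S100a8 and S100a9 and -0.05 for the broadly expressed members there. The value of -0.26 was -0.58 without replicate 2, -0.04 without replicate 3 and -0.15 without replicate 4. The erythroid markers shifted by 0.66 on replicate 2. The housekeeping genes had median shifts between -0.04 and 0.04, and 5 of 8 were lower on replicate 2 and 5 of 8 higher on replicate 3.

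**Figure D3:**
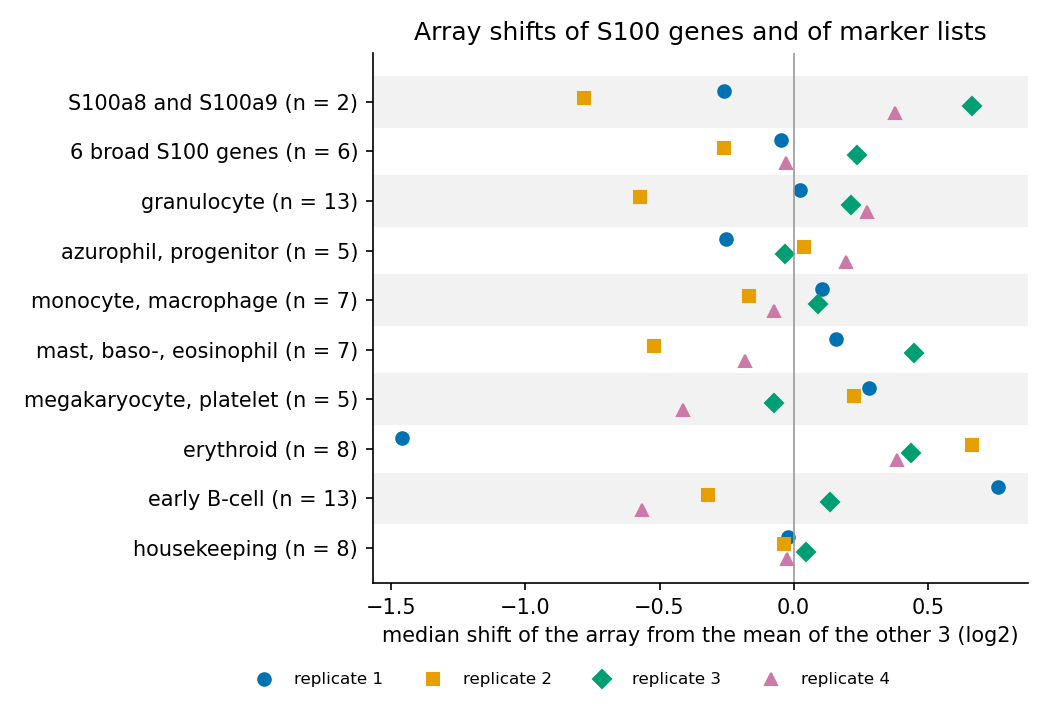
Median over each gene list (rows) of the log2 value on 1 array minus the mean of the other 3 (horizontal axis), with 1 symbol for each replicate and n for the genes with a probe set. Replicate 2 lies at -0.78 for S100a8 and S100a9 and at -0.57 for the granulocyte markers, and replicate 1 lies at 0.76 for the early B-cell markers.

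Of the remaining S100 genes, 9 were measured by a single-symbol probe set and 3 of these were above background, S100a7a, S100b and S100g. Among all single-symbol probe sets the share above background was 63.5%. None of the 9 passed the line at the 99th percentile on all 4 arrays. S100a7a, an epithelial S100 gene that lies between S100a6 and S100a8 in the cluster, had log2 values of 7.21, 7.16, 7.14 and 7.33 on replicates 1 to 4, a range of 0.19 beside 1.12 for S100a8. S100b, of glial cells, had values of 6.69 to 6.84, and S100g, an intestinal calcium carrier, of 6.87 to 7.04. S100a16 passed the line on 2 arrays and S100a5 on 1, whereas S100a2, S100a3, S100a14 and S100z passed it on none. Thus along the chromosome 3 cluster the genes above background with a range of at least 0.5 were S100a4, S100a6, S100a8 and S100a9. They were interspersed with S100a5 and S100a7a, with ranges of 0.18 and 0.19. S100a5 passed the line on 1 array, and the smallest margin of S100a7a over it was 0.53. The small ranges of these weak signals do not show that the genes were steady. S100a1 and S100a13 stand at one end of the cluster, in divergent orientation, with upstream windows that share 104 bases. S100a11 and S100a10 lie outside it on the same chromosome, as neighbouring S100 genes with ranges of 0.10 and 0.71. S100a14, with a range of 0.71, was below the background line on all arrays.

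**Figure D4:**
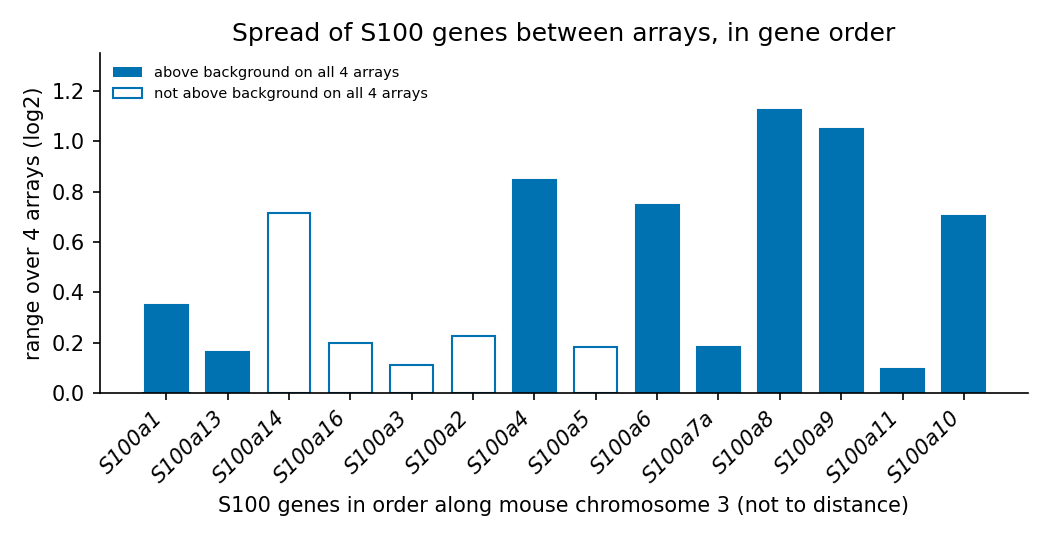
Range of the log2 value over the 4 arrays of wild type pro-B cells (vertical axis) for the measured S100 genes on mouse chromosome 3, in gene order and not to distance (horizontal axis); filled bars are genes above background on all 4 arrays. The bars of S100a8 and S100a9 reach 1.12 and 1.05, and that of S100a7a beside them, a weak signal with log2 values of 7.14 to 7.33, reaches 0.19.

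The intracellular partners of the S100 proteins were above background in 7 of 10 cases, near the share of 63.5% among all probe sets with 1 symbol. Fgf1, Il1a and Syt1, the export partners of S100a13, were above it in no case. Anxa2, the partner of S100a10, had log2 values of 11.07, 10.77, 11.04 and 10.89 on replicates 1 to 4, lowest on replicate 2 as S100a10 was, with a range of 0.30 against 0.71. Ahnak, a scaffold of the same complex, had values of 10.02, 9.48, 9.96 and 9.52. Anxa1, the partner of S100a11, had values of 10.43, 10.36, 10.82 and 10.76, the order of arrays seen for S100a8 and S100a9, with a range of 0.46. Cacybp, which binds S100a6, stayed between 12.30 and 12.33, and Sugt1, another target of S100a6, between 9.43 and 9.77. Myh9, the myosin heavy chain bound by S100a4, had values of 11.38 to 11.66 for the brighter of its probe sets.

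The receptors and adaptors through which extracellular S100a8 and S100a9 act were above background in 6 of 6 cases, beside 63.5% of all probe sets with 1 symbol. Tlr4, the lipopolysaccharide receptor, had log2 values of 7.71 to 8.04, its co-receptor Ly96 of 10.47 to 10.76, the adaptor Myd88 of 10.87 to 11.26 and Bsg, the surface glycoprotein basigin, of 11.45 to 11.73. Ager, the receptor for advanced glycation end products, had values of 7.53 to 7.64. Cd36, a scavenger receptor, was the only one with a range of 1 or more, at 7.86 on replicate 1 and 6.74 to 6.93 on the other arrays, and it did not pass the line at the 99th percentile on all of them.

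The transcription factors of myeloid differentiation were above background in 8 of 8 cases, beside 63.5% of all probe sets with 1 symbol. In 0 of the 8 was replicate 2 lowest and replicate 3 highest, an order that 7.93% of the probe sets above background had. At that share a count of 0 among 8 genes says nothing about the list. Lower on replicate 2 were 6 of the 8, with a median shift of -0.17, and higher on replicate 3 were 5, with one of 0.01. The share of all probe sets with these directions was not computed. Cebpe, the factor of late granulocyte maturation, had log2 values of 8.60 to 9.04, highest on replicate 2, where S100a8 was lowest, and lowest on replicate 1. Cebpb, at 9.18, 8.42, 8.57 and 8.63, was highest on replicate 1. Spi1, which encodes PU.1, had values of 11.87 to 12.10, Cebpa of 9.01 to 9.35, Gfi1 of 9.06 to 9.40 and Cebpd of 7.35 to 7.89. Klf4, a factor of monocytes, had values of 8.74 to 9.24.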

How the data were processed

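Total RNA of pro-B cells was hybridized to Affymetrix Mouse Gene 1.0 ST arrays. The deposited table holds log2 intensities that the authors background-corrected and normalized with RMA. Which arrays entered that normalization, and at what threshold the methods filtered low-expression probe sets, is not stated in the sources used here. The whole table of 34760 probe sets was used, 0 columns were left without a sample, and the number of arrays limits the precision. Genes were named from the platform annotation where a probe set had 1 symbol, and all 9 member probe sets matched the RefSeq gene table by gene identifier. A gene with several probe sets was given by that with the highest mean. A shift is the value on 1 array minus the mean of the other 3.

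The members and gene lists were chosen with earlier results of these data known. Named genes were the members, the other S100 genes, their partners, receptors and myeloid regulators, and the 5 genes nearest to S100a8 and to S100a9. Since the samples form 1 group, spreads and shifts carry no test. The margin over background was tested with limma, one-sided, with Benjamini-Hochberg adjustment over all probe sets, after the script was checked on simulated data. Alternatives were other background lines (90th and 99th percentile, array median), 3 of 4 arrays, quantile normalization, median centring, cyclic loess, the mean of all probe sets of a gene, the range in place of the SD, a range of 0.5, no filter on dim probe sets and leaving out each array. Motifs were searched in RefSeq promoter windows of GRCm38.p6. The limma version was 3.58.1, run in R 4.3.3. Other steps used pandas 2.3.3, numpy 2.4.6 and matplotlib 3.10.9 in Python 3.11.15.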

Additional observations from a re-analysis of the deposited data

Results flagged for a closer look

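On 1 array each, 3 of the 46 named genes stood far from their remaining values, and about 1 in 20 genes, or 2.3, would do so by chance. No S100 gene was among them. Anxa11, an annexin that binds S100a6, had a log2 value of 10.25 on replicate 2, against a mean of 10.46 on the other arrays. Irf8, a transcription factor of monocytes, dendritic cells and B cells, had a value of 12.51 on replicate 1, against 12.28. Ager had a value of 7.53 on replicate 4, against 7.63.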

How the results depend on the processing

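No paired analysis was possible because the design has 1 group. Of 124 values recomputed, 116 kept their sign and stayed within a limit set for each kind of value. The limit was a ratio for counts and shares, a fraction of the main value for median SDs, and an SD over arrays for shifts and ranges. It was wide for the last 2 kinds. The mean shift of S100a8 and S100a9 on replicate 1, -0.26, stayed within it at -0.04 without replicate 3. So did the range of S100a8, 1.12, at 0.71 without replicate 2. All 8 members stayed above background with every line, with the limma test and without each replicate. The count of members with a range of at least 1 lay between 0 and 2 with 1 replicate left out, and 5 with a range of 0.5 as the limit. The median SD of the broadly expressed members was 0.12 to 0.28 without each replicate, the lowest without replicate 2, and that of S100a8 and S100a9 0.36 to 0.58. Taking the range instead of the SD, the medians were 0.53 and 1.09, by construction larger. The median shift of the broadly expressed members turned sign without replicate 3 on replicate 1 (0.041, between -0.056 and 0.041 over the arrays left out) and on replicate 4 (0.038, between -0.13 and 0.038), where the cause was not tested. The count of members lowest on replicate 2 and highest on replicate 3 under other normalizations was added after the data were examined.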
